A study of Mus musculus with 42 samples.

Results

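A group of 10 transcription factors of pluripotency and of the first cell lineages was followed through early mouse embryos, namely Nanog, Sox2, Klf4, Klf17, Sall4, Nr5a2, Tfap2c, Tead4, Gata3 and Cdx2. They were picked by name, without use of their values, and are 10 of the 15737 genes with a symbol listed once in the RNA-seq table. Nanog, Sox2, Klf4 and Sall4 belong to the circuit that keeps cells of the inner cell mass and embryonic stem cells pluripotent. Nr5a2 is an orphan nuclear receptor that binds many genes switched on when the zygotic genome is activated, and Klf17 is a zinc finger factor of the KLF family known from oocytes and cleavage embryos. Tead4 is the DNA-binding partner of Yap1, which the Hippo pathway keeps out of the nucleus in inner cells. Tead4 acts upstream of Cdx2 and Gata3, which specify the trophectoderm, the outer layer that forms the placenta, and Tfap2c, an AP-2 factor, acts with them. At the 2- and 4-cell stages no lineage has yet been set aside, so these embryos show the factors before their lineages exist.

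The embryos came from ICR mice and were collected at 34 h after hCG (early 2-cell), 48 h (late 2-cell) or 58 h (4-cell), with 3 embryos in a library and 2 libraries in a group. Early 2-cell embryos and the late 2-cell and 4-cell controls are labelled untreated, and the methods of the study give DMSO as the control of the inhibitors. Late 2-cell and 4-cell embryos received 0.01 µM FK866, which blocks NAMPT and with it the salvage synthesis of NAD+, or 0.01 µM FK866 with 10 µM NMN, the product of NAMPT. Other late 2-cell embryos received 10 nM TSA, an inhibitor of histone deacetylases, or were depleted of Sirt1, an NAD+-dependent deacetylase, by injecting zygotes with siRNA, Trim21 mRNA and an antibody. Controls of that depletion received scrambled siRNA with Trim21 mRNA, and no separate library of them was analysed here. Libraries hold pooled whole embryos, so fewer expressing cells and less RNA per cell cannot be told apart.

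The table gives FPKM (fragments scaled to exon length and to the size of the library) with 1 column for each group, from which single libraries were separated. Values fell on whole multiples of the FPKM of 1 read, with 2 such steps in 7 columns and 1 in the other 2, headed 4-cell FK866 and 4-cell FK866+NMN. The 16 libraries, called A (larger) and B (smaller) within a column, held 3169677 to 10003481 reads. Headers and the supplementary tables of the study name different groups for 5 columns. By the values listed there, the 4-cell control is the column headed late 2-cell TSA (84 of 84 values equal), 4-cell FK866 is the column headed late 2-cell Sirt1, and 4-cell FK866+NMN is the column headed 4-cell control. By the directions listed, late 2-cell TSA is the column headed 4-cell FK866 (1203 of 1203 the same). Sirt1 depletion is the column headed 4-cell FK866+NMN by a looser match (773 of 821). The late 2-cell FK866 column came next for Sirt1 depletion, with 703 of 821. Every comparison is therefore given by the headers first and by the tables second, and columns are called by their headers. Sirt1 itself stood at 86.6 and 66.2 FPKM in the libraries of the late 2-cell control. In the column headed late 2-cell Sirt1 it stood at 32.4 and 73.1, and in the column headed 4-cell FK866+NMN at 11.3, which is the column that the tables give. It was also low in the column headed 4-cell FK866 (7.61) and in early 2-cell embryos (13.5 and 6.18).

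Maternal transcripts divided the columns. The summed level of 8 oocyte and maternal transcripts was 1101 to 4238 FPKM in the early and late 2-cell control, FK866 and FK866+NMN columns and in those headed 4-cell FK866 and 4-cell FK866+NMN. It was 69.8 to 157 FPKM in the columns headed late 2-cell TSA, late 2-cell Sirt1 and 4-cell control. Btg4 gave much of the sum, at 706 to 3872 FPKM in the former columns and 22.5 to 46.5 in those 3. Of the 8, Zp3 and Mos did not follow this. Zp3 was 30.1 to 51.4 FPKM in those 3 columns and 54.9 in the late 2-cell control. Mos was 10.1 in the column headed late 2-cell Sirt1 and 6.10 in the late 2-cell control. It was 0 in the columns headed FK866 and FK866+NMN of both stages. The sum of 13 genes of the 2-cell stage did not divide the columns in this way. It was 211 to 306 FPKM in those 3, 211 in early 2-cell embryos, 828 in the late 2-cell control and 365 in the column headed 4-cell FK866. The median of this list did divide them, at 0.721 to 2.44 FPKM in those 3 columns and 5.99 to 55.5 in the others. Zscan5b made up most of the sum in the 3 columns, at 183 to 248 against 284 in the late 2-cell control. Zscan4d was 3.63 to 10.4 there against 125 in the same control. Markers of cumulus and granulosa cells, the somatic cells around the oocyte, summed to 1.80 to 14.9 FPKM over 12 genes, and the highest was Cyp19a1 with 8.12 in the column headed 4-cell FK866. The plot of these lists by column shows the sums, and their part in the results below was not tested.

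**Figure D1:**
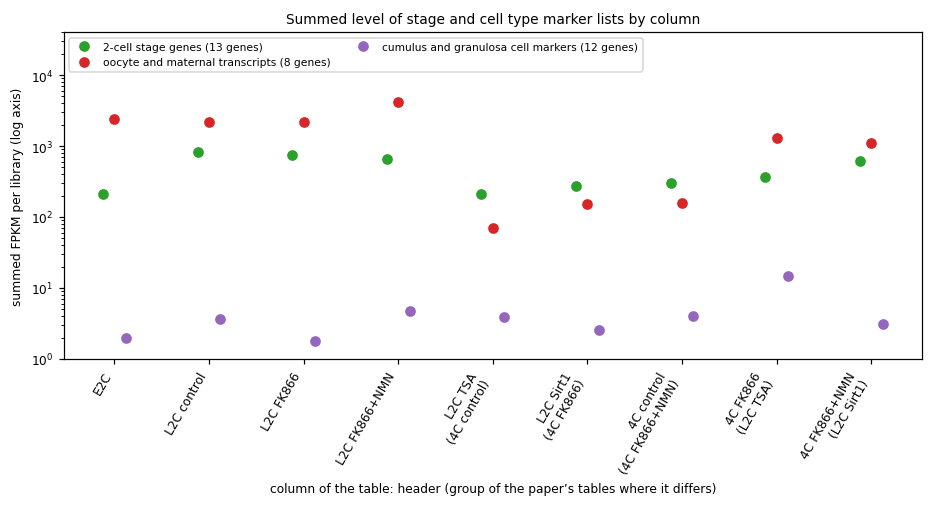
Summed mean FPKM per library (log axis, 1 point for each list and column) of 8 oocyte and maternal transcripts, 13 genes of the 2-cell stage and 12 cumulus and granulosa markers in the 9 columns, with the group of the study's tables in parentheses where it differs from the header. Maternal transcripts sum to 69.8, 151 and 157 in the columns headed late 2-cell TSA, late 2-cell Sirt1 and 4-cell control and to at least 1101 in the other columns.

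RefSeq promoter sequence on GRCm38.p6 was given for 7 of the 10 genes. The 250 bases before the first listed start are shown for 4 whose levels the results turn on, read on the strand of the gene. Capitals mark matches on either strand to motifs that factors of this group bind. The letters searched were GGAATG for TEAD factors and AAGGTCA for the NR5A receptors. Those for KLF factors were CCACACCC, those for AP-2 factors GCCNNNGGC, those for GATA factors AGATAA and those for SOX factors ACAATG.
Klf17, chr4:117765667-117765916, minus strand: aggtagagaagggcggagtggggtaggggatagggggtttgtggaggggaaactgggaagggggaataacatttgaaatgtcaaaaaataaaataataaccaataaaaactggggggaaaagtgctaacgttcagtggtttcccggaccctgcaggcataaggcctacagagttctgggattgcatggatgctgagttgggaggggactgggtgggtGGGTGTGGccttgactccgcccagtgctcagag
Nr5a2, chr1:136960449-136960698, minus strand: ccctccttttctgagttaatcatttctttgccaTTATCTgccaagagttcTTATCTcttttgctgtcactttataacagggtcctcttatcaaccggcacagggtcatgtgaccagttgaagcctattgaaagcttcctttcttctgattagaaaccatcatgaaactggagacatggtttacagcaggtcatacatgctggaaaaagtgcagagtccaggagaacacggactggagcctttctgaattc
Nanog, chr6:122707239-122707488, plus strand: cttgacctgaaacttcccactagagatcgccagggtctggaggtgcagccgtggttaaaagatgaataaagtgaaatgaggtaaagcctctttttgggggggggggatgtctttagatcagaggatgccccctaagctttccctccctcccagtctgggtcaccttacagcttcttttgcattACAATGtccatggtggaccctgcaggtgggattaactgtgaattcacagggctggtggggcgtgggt
Klf4, chr4:55532476-55532725, minus strand: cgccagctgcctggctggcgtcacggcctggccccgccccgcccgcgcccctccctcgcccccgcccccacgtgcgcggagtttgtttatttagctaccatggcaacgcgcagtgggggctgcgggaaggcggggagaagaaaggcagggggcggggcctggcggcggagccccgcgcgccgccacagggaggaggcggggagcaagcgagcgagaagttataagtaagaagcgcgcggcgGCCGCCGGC
Klf17 carried a KLF match beginning 33 bases before its start, read on the opposite strand, and such a match was in 3.2% of 32851 windows of this length. Nr5a2 carried 2 GATA matches, at 217 and 200 bases (9.99% of windows had at least 1), and Nanog a SOX match at 67 bases (10.7%). The Klf4 window, with 74.0% G and C against a median of 52.4%, held an AP-2 match ending at its last base (13.7%). A TEAD match (12.6% of windows) lay at 58 bases before the other listed start of Nr5a2. Of the genes not printed, Gata3 had 3 AP-2 matches, Cdx2 had 1, and Sox2 had no match to any of the motifs. With several motifs searched, a window has more ways to hold a match than each share alone shows. The NR5A motif, in 4.08% of windows, was in none of the windows of the 7 genes, which says only that these letters are not there.

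Klf17 had the highest level of the group in the 2-cell columns whose headers and tables name the same group. It lies at chr4:117757836-117765648. Its FPKM was 414 and 504 in the early 2-cell libraries, 426 and 434 in the late 2-cell controls, 276 and 463 with FK866, and 304 and 272 with FK866+NMN. In the column headed late 2-cell TSA it was 34.5 and 54.3, from 568 and 851 reads. Both libraries of that column lay below every other library. Klf17 stood at 294 and 235 FPKM in the column headed late 2-cell Sirt1, at 394 and 252 in that headed 4-cell control, at 123 in that headed 4-cell FK866 and at 269.9 in that headed 4-cell FK866+NMN. Klf17 gave 8.06% and 8.22% of the reads of the 10 genes in the TSA-headed libraries and 24.4% to 72.0% in the other libraries, as the plot of each gene by library shows. In the order of column means, the early 2-cell, late 2-cell control, FK866, 4-cell control-headed and FK866+NMN columns overlapped from each to the next.

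**Figure D2:**
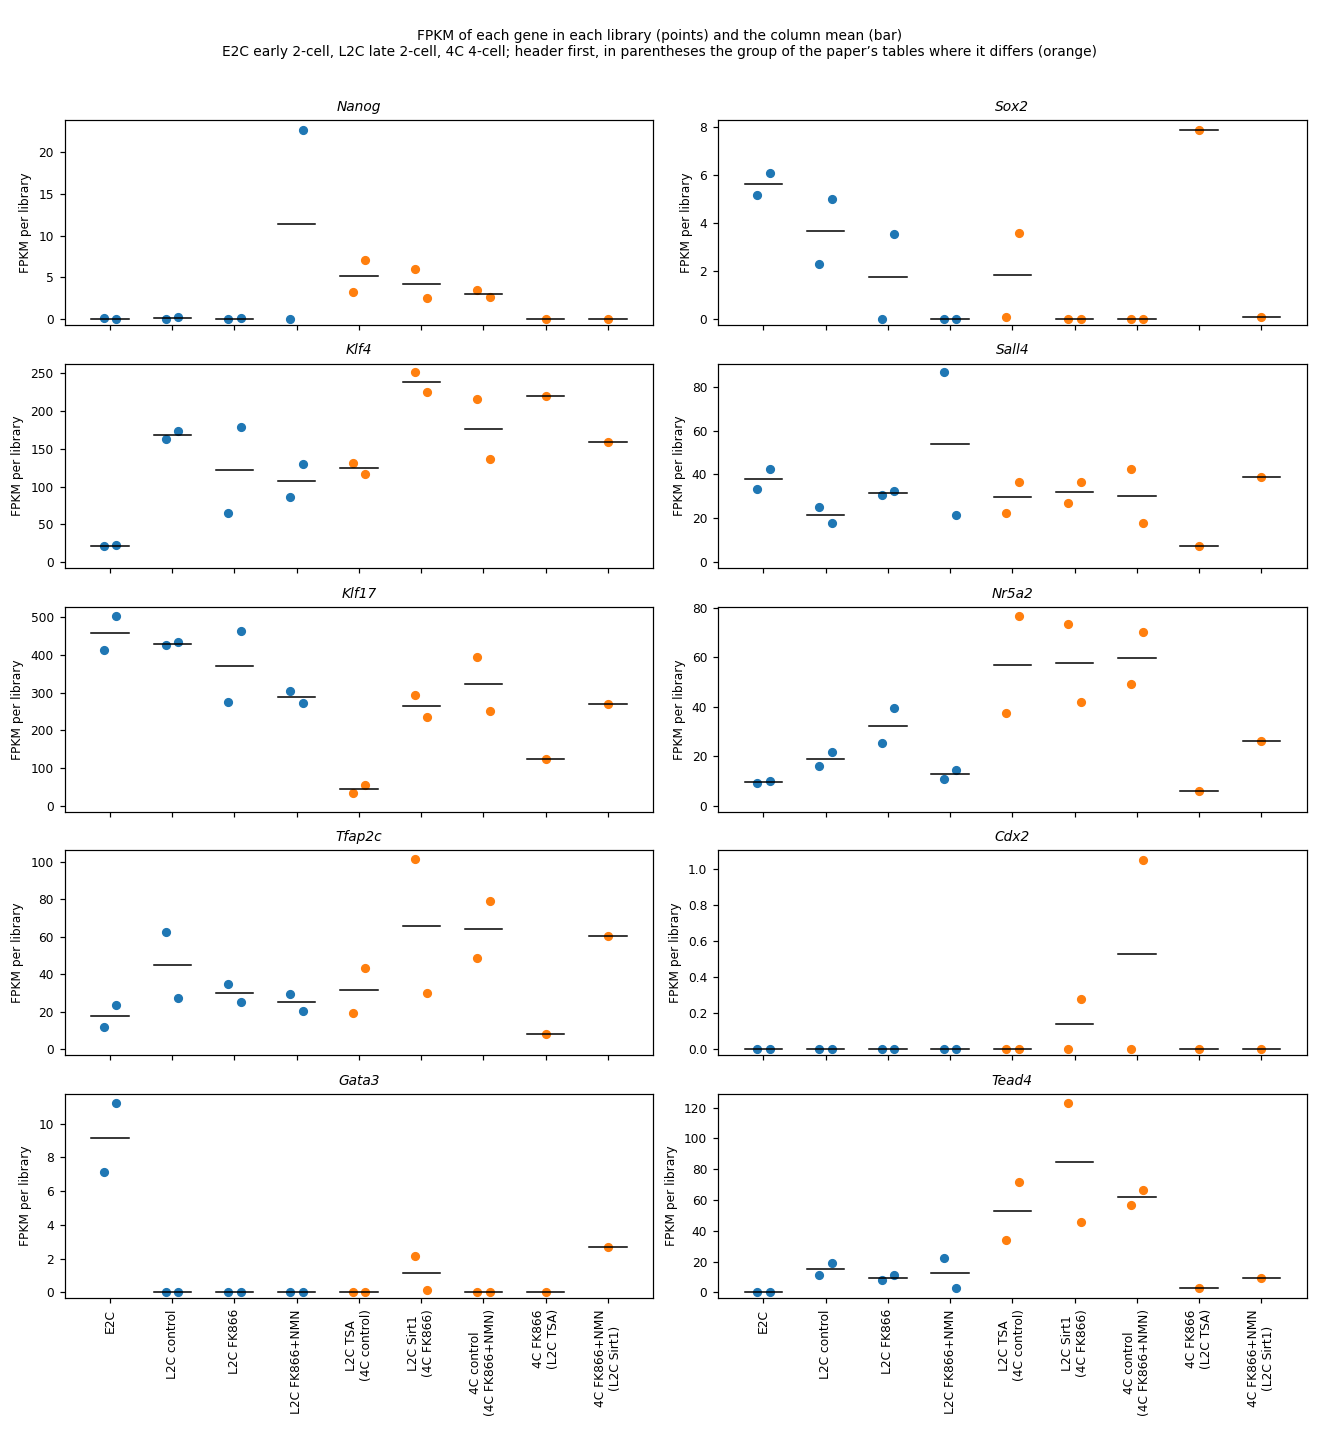
FPKM of the 10 genes in each of the 16 libraries (points) with the column mean (bar), by column header and, in parentheses and orange, by the study's tables where they differ. Klf17 is lowest in the column headed late 2-cell TSA (34.5 and 54.3), Klf4 in early 2-cell embryos (20.9 and 23.2), and Nanog in the FK866+NMN column stands at 0 in one library and 22.7 in the other.

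Klf4 (chr4:55527143-55532466) was lowest in early 2-cell embryos, at 20.9 and 23.2 FPKM. It was 163 and 174 in the late 2-cell controls, 65.7 and 179 with FK866 and 85.8 and 129.9 with FK866+NMN. No library of any later column came down to the early 2-cell level. Among the columns with disputed names Klf4 was 131 and 117 in that headed late 2-cell TSA, 251 and 225 in that headed late 2-cell Sirt1 and 215 and 137 in that headed 4-cell control. The single libraries headed 4-cell FK866 and 4-cell FK866+NMN had 219.9 and 159 FPKM. Klf4 thus had its highest column mean, 238, in the column headed late 2-cell Sirt1, which the tables call 4-cell FK866.

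Nanog (chr6:122707489-122714633) was close to absent at the 2-cell stage, with 0 to 2 reads in each of the 6 libraries of the early 2-cell, late 2-cell control and FK866 columns. The FK866+NMN column held 0 reads in library A and 272 reads, or 22.7 FPKM, in library B. Its column mean, the highest of the 9, therefore came from a single library. In the 3 columns with few maternal transcripts Nanog was 3.19 and 7.11 FPKM (headed late 2-cell TSA), 5.93 and 2.53 (headed late 2-cell Sirt1) and 3.42 and 2.59 (headed 4-cell control). It had no read in the libraries headed 4-cell FK866 and 4-cell FK866+NMN, where 3 reads would have been 0.286 and 0.194 FPKM. Intervals and floors of this kind cover counting error only.

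Sox2 (chr3:34650405-34652461), a partner of Oct4 in pluripotent cells, was 5.17 and 6.07 FPKM in early 2-cell embryos and 2.31 and 5.02 in late 2-cell controls. With FK866 it had 0 and 59 reads (0 and 3.53 FPKM), and with FK866+NMN no read in either library. The level was 0.0709 and 3.57 FPKM in the column headed late 2-cell TSA and 0 in all 4 libraries headed late 2-cell Sirt1 and 4-cell control. The highest level, 7.89 FPKM from 76 reads, was in the library headed 4-cell FK866, while that headed 4-cell FK866+NMN held 1 read. Sox2 lies inside the noncoding gene Sox2ot on the same strand, and whether the counting used strand or split shared reads is not given in the sources used here.

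Sall4 (chr2:168748332-168767943), a zinc finger factor of the inner cell mass, had column means from 7.25 to 54.0 FPKM. It was 33.6 and 42.4 FPKM in early 2-cell embryos, 25.3 and 18.0 in late 2-cell controls and 30.5 and 32.6 with FK866. With FK866+NMN the libraries stood at 86.5 and 21.6, a 4.01-fold gap. The columns headed late 2-cell TSA, late 2-cell Sirt1 and 4-cell control gave 22.5 and 36.8, 27.1 and 36.6, and 42.7 and 18.1. The single libraries headed 4-cell FK866 and 4-cell FK866+NMN had 7.25 and 38.9, and the former was the lowest of the 16.

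Nr5a2 (chr1:136842571-136960448) was 9.17 and 10.1 FPKM in early 2-cell embryos and 16.2 and 21.9 in the late 2-cell controls. It was 25.4 and 39.4 with FK866 and 10.7 and 14.5 with FK866+NMN. The 3 columns with few maternal transcripts held the most, at 37.3 and 76.8 (headed late 2-cell TSA), 73.7 and 41.8 (headed late 2-cell Sirt1) and 49.3 and 70.5 (headed 4-cell control). These 3 overlapped one another, and their lowest library, at 37.3, lay below the higher FK866 library. The library headed 4-cell FK866 had 5.86 FPKM and that headed 4-cell FK866+NMN 26.4.

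Tead4 (chr6:128224288-128300823) had no read in either early 2-cell library, which allows at most 0.0811 FPKM over the column. It was 11.0 and 19.4 in the late 2-cell controls, 8.19 and 11.1 with FK866 and 22.6 and 3.07 with FK866+NMN. The columns headed late 2-cell TSA, late 2-cell Sirt1 and 4-cell control gave 34.0 and 71.7, 123 and 45.9, and 57.0 and 66.5 FPKM. All 6 of these libraries lay above all of the other libraries. The library headed 4-cell FK866 had 2.79 FPKM and that headed 4-cell FK866+NMN 9.54.

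Tfap2c (chr2:172549593-172558622) was 11.7 and 23.8 FPKM in early 2-cell embryos, 62.5 and 27.2 in late 2-cell controls, 35.0 and 25.2 with FK866 and 29.4 and 20.6 with FK866+NMN. In the columns headed late 2-cell TSA, late 2-cell Sirt1 and 4-cell control it was 19.2 and 43.6, 102 and 29.9, and 48.8 and 79.4. Neighbouring columns in the order of means overlapped from the highest down to early 2-cell. The library headed 4-cell FK866, with 8.18 FPKM, lay below all others, and that headed 4-cell FK866+NMN had 60.4.

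The other two trophectoderm factors had few reads. Gata3 (chr2:9857078-9890034) was 7.13 and 11.2 FPKM in early 2-cell embryos, from 160 and 207 reads, and had no read in the late 2-cell control, FK866 and FK866+NMN libraries. It had 85 and 2 reads in the column headed late 2-cell Sirt1, 74 reads (2.69 FPKM) in the library headed 4-cell FK866+NMN and none in the remaining columns. Cdx2 (chr5:147300805-147307270) had 11 reads in 1 library headed 4-cell control (1.05 FPKM), 2 reads in 1 headed late 2-cell Sirt1 and none in the other 14. Its column means stayed under 1 FPKM, so Cdx2 did not pass the filter on low values and 9 of the 10 genes were tested. Parts of Gata3, Sall4 and Tead4 are covered by other annotated genes. At Gata3 these include the antisense gene Gm13256 and, on the same strand, 9230102O04Rik. Reads shared with genes of the opposite strand cannot be assigned without strand. Strand would not tell Gata3 from 9230102O04Rik.

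**Figure D3:**
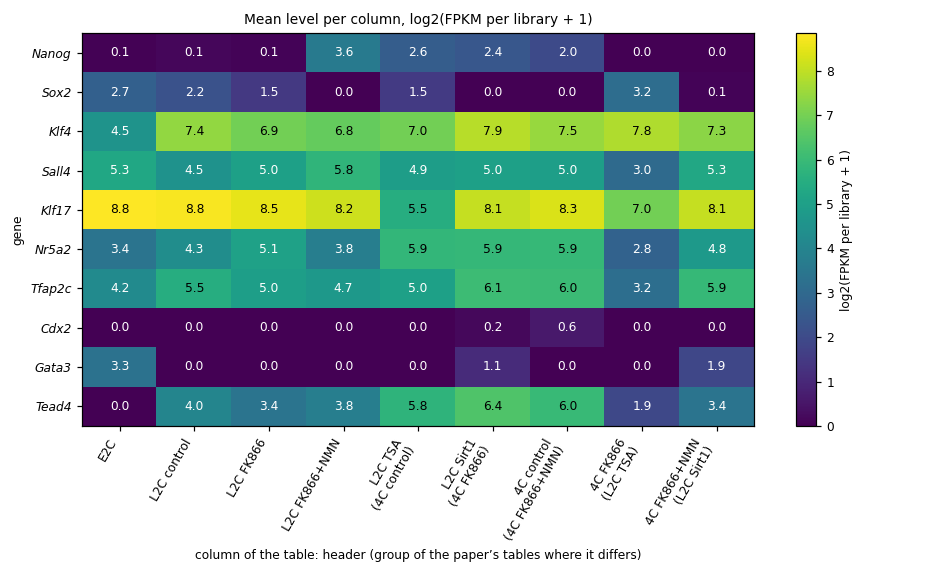
Mean level of each gene in each column as log2(FPKM per library + 1), from dark (0) to bright, with the value printed in each cell and the study's tables in parentheses where they differ from the header. Klf17 is brightest in the early 2-cell column (mean 459 FPKM) and dimmest in that headed late 2-cell TSA (44.4), and Tead4 is dark in the early 2-cell column and brightest in that headed late 2-cell Sirt1 (84.4).

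From the early to the late 2-cell control, whose columns are not in dispute, Klf4 and Tead4 rose and Gata3 fell. Log2 fold changes here are differences of log2(FPKM + 1), which understate changes of low genes. They were tested with limma on all 11622 genes that reached 1 FPKM per library in some column, with p-values adjusted over all of them. Folds between columns are ratios of mean FPKM without the added 1, so they differ from the log2 values beside them. Klf4 rose 7.65-fold (2.88 ± 0.44, log2 and SE, adjusted p = 0.00209). Tead4 rose from no read to a mean of 15.2 FPKM, which is at least 188-fold against 3 reads over the early column (3.97 ± 0.80, adjusted p = 0.00861). Gata3 fell from a mean of 9.17 FPKM to no read, at least 130.0-fold (-3.32 ± 0.46, adjusted p = 0.00116). These 3 of 9 tested genes stand beside 15.0% of all tested genes called. Klf17 differed by -0.09 ± 0.34, and Tfap2c and Nr5a2 by 1.25 ± 0.68 and 0.90 ± 0.47, neither past the threshold (adjusted p = 0.256 and 0.241). In 7 of the 9 genes the libraries of the 2 columns did not overlap, which held for 53.7% of all genes. The Tead4 call was lost on leaving out either early 2-cell library (adjusted p = 0.0566 and 0.0588) or control library B (0.0579), and with a pseudocount of 5 (0.0570). By voom the Klf4 call was lost (adjusted p = 0.0725), and in the fit on these 2 columns those of Tead4 (0.0583) and Gata3 (0.0665).

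Between the late 2-cell and 4-cell controls Klf17 was lower under both readings and passed the threshold by the tables alone. By the headers it stood at 394 and 252 FPKM against 426 and 434, with libraries apart. Of all genes, 21.2% were lower without overlap in that reading. By the headers none of the 9 genes passed the limma threshold, beside 6.62% of all genes. Of the 9, 3 had an unadjusted limma p under 0.05, beside 2299 of all 11622 genes. Voom on the recovered reads called none, beside 4.61% of all genes. Nr5a2 was 1.60 ± 0.47 higher (adjusted p = 0.0806) and Tead4 2.00 ± 0.80 higher (0.196), with no overlap between the libraries of the 2 columns. Nanog also lay higher without overlap, at a mean of 3.01 FPKM against 0.107, the latter from 2 reads. Of all genes, 22.3% were higher without overlap. By the tables, where the 4-cell control is the column headed late 2-cell TSA, Klf17 was 9.68-fold lower at the 4-cell stage (-3.28 ± 0.34, adjusted p = 0.000745), the 1 gene of 9 called, beside 11.0%. Nr5a2 was then 1.46 ± 0.47 and Tead4 1.69 ± 0.80 higher, again with libraries apart and past no threshold (adjusted p = 0.0829 and 0.2504). Nanog, at a mean of 5.15 FPKM, was likewise higher with libraries apart and not called. Libraries were apart in this direction for 18.1% of all genes. The summed maternal transcripts were lower in both candidate columns than in the late 2-cell control, at 157 and 69.8 against 2210 FPKM. The Klf17 difference by the tables kept its call on leaving out any of the 4 libraries (-3.60 to -2.96) but not in a fit on these 2 columns alone (adjusted p = 0.0798). Centring each library on its median raised log2 fold changes of this contrast by 1.06 and moved the share of higher genes among calls from 33.2% to 78.7%. Nr5a2, Nanog and Tead4 were then called higher and Klf17 lower, at -2.23.

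FK866 did not move any of these genes past the threshold at the late 2-cell stage, where headers and tables name the same columns. None of 9 was called by limma, beside 0.404% of all genes, and voom called none, beside 2.1%. None had an unadjusted limma p under 0.05, beside 909 of all 11622 genes. The 47 calls over all genes moved to 289 to 363 on leaving out any 1 of the 4 libraries. Nr5a2 was 0.72 ± 0.47 higher (1.70-fold) and Sall4 0.54 ± 0.63 higher, each with libraries above those of the control. That held for 12.8% of all genes. Klf4 stood below both controls in 1 FK866 library (65.7 FPKM) and above them in the other (179), and Klf17 likewise (276 and 463). With a simulated 16-fold change between these 2 columns, 44 of 46 raised and 18 of 50 lowered genes were called, and with 4-fold 7 of 48 and 2 of 50. A 16-fold fall, or a change of 4-fold or less in either direction, could therefore have been missed.

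NMN added to FK866 gave no call against FK866 alone (0 of 9 by limma, beside 2.09% of all genes) or against the control (0 of 9, beside 3.49%). In each case 1 gene had an unadjusted limma p under 0.05, beside 1551 and 1888 of all 11622 genes. Voom called 0 and 1 of the 9, beside 982 and 965 genes in all. Nr5a2 was 2.56-fold lower in mean FPKM with NMN than with FK866 alone, and 1.27 ± 0.47 lower in log2(FPKM + 1) (adjusted p = 0.245). Its libraries lay apart, as did those of 19.2% of all genes in this direction. Its level with FK866+NMN was also below both controls, at 10.7 and 14.5 against 16.2 and 21.9. Klf4 and Klf17 were 1.56-fold and 1.49-fold lower than the control, with libraries apart and adjusted p = 0.459 and 0.401. Of all genes, 21.1% were lower than the control with libraries apart. Sox2 had no read with NMN, at least 34.7-fold below the control, and passed the threshold by voom (adjusted p = 0.0302). Nanog was 2.14 ± 1.16 above the control on the strength of library B, and leaving out library A made it a call (4.43, adjusted p = 0.00451). Without library B instead, Sall4 was called (1.97, adjusted p = 0.0484). Centring on the median moved the share of higher genes among calls from 16.3% to 94.4% against the control and from 12.3% to 96.5% against FK866. It raised these log2 fold changes by 1.39 and 1.42, and then called Nanog in both contrasts and Sall4 against the control. The FK866+NMN libraries had reads on 5430 and 6428 genes and the controls on 7512 and 8307.

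**Figure D4:**
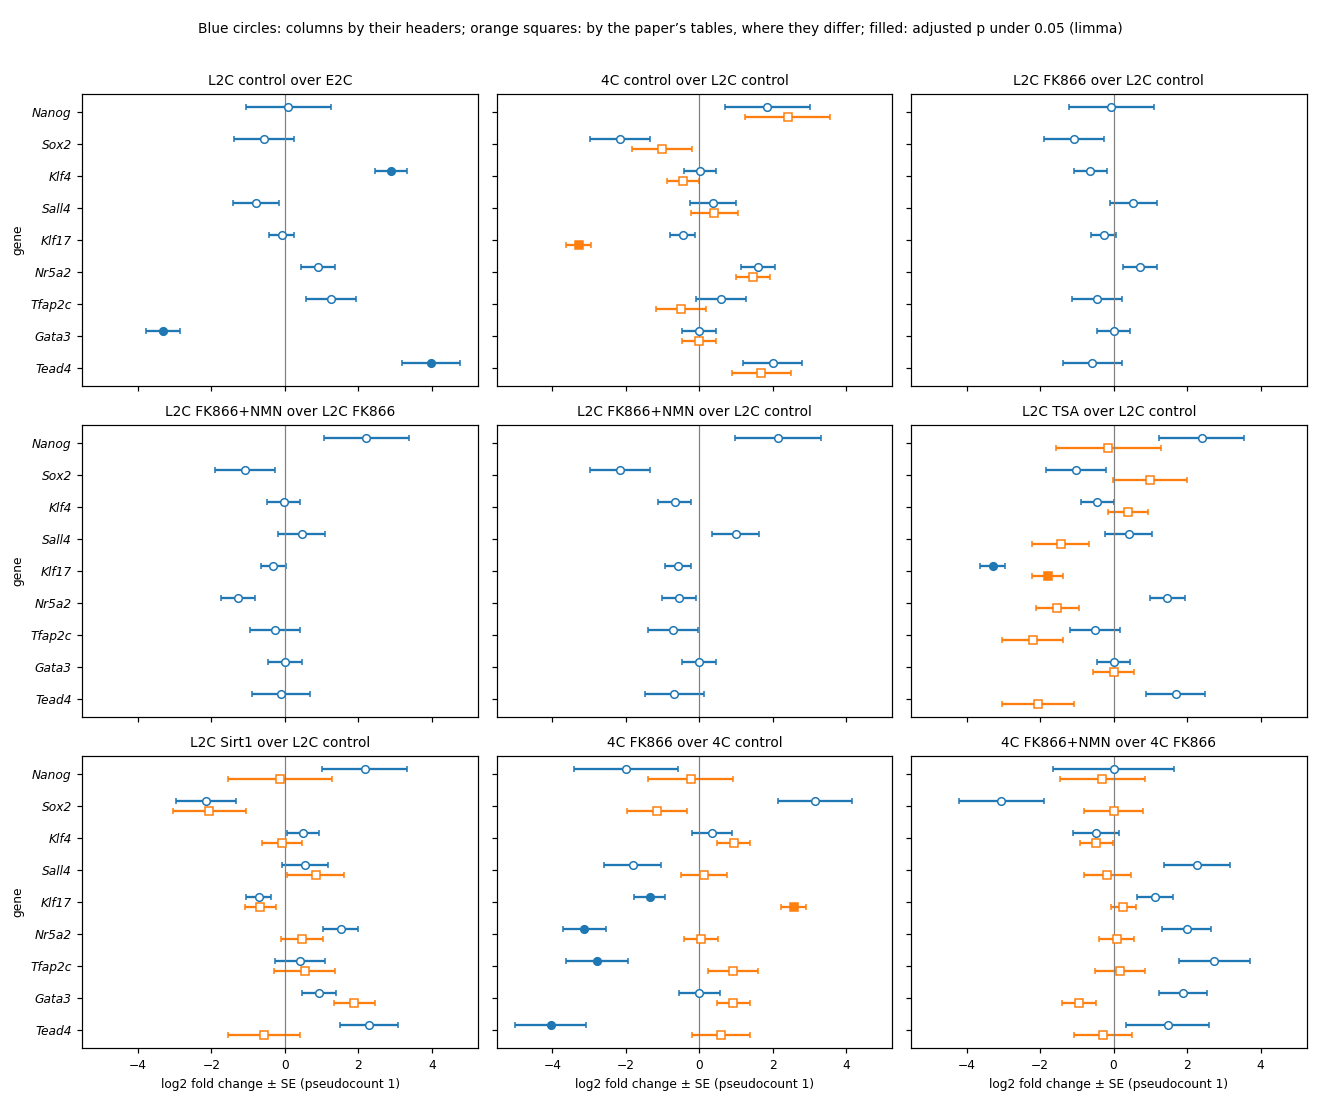
Log2 fold change ± SE (limma, pseudocount of 1) of the 9 tested genes in 9 comparisons, with blue circles for columns by header, orange squares for columns by the study's tables and filled symbols for adjusted p under 0.05. Klf17 lies at -3.28 and -1.80 for TSA over control, and at -1.35 by the headers but 2.57 by the tables for FK866 over control at the 4-cell stage.

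TSA against the late 2-cell control gave lower Klf17 under both assignments. By the headers this is the contrast already given for the 4-cell control by the tables, with Klf17, 1 of 9 called beside 11.0%, at 34.5 and 54.3 FPKM against 426 and 434. By the tables the TSA sample is the single library headed 4-cell FK866, where Klf17 was 3.50-fold lower at 123 FPKM (-1.80 ± 0.42, adjusted p = 0.0250), beside 8.51% of all genes called. A lone library is taken to vary as the other columns do, and this call was lost on leaving out either control library (adjusted p = 0.0734 and 0.0728) by voom (0.298) and in the fit on these 2 columns (0.0691). Under the headers Nr5a2 and Tead4 were higher than the control, and under the tables Nr5a2, Tead4 and Tfap2c were lower, at -1.53 ± 0.58, -2.05 ± 0.98 and -2.20 ± 0.84 (adjusted p = 0.160, 0.280 and 0.161). The direction for Nr5a2 and Tead4 thus turned with the assignment, while Tfap2c was below the control mean under both (-0.50 ± 0.68 by the headers). Maternal transcripts summed to 69.8 FPKM in one candidate column and 1312 in the other, against 2210 in the control. Centring moved the share of higher genes among calls by the tables from 69.8% to 52.7%.

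Sirt1 depletion gave no call among the 9 genes by either assignment. By the headers (0 of 9 by limma, beside 8.32%) voom called 3, Gata3, Sox2 and Tead4. The share of all genes that voom called there is not given here. The column had Tead4 at 84.4 FPKM against 15.2 in the control (2.28 ± 0.80, adjusted p = 0.123) and Nr5a2 at 57.7 against 19.0 (1.51 ± 0.47, adjusted p = 0.0845). By the tables (0 of 9, beside 0.972%) voom called 1, Gata3, beside 320 genes in all. Gata3 had 74 reads there and none in the control, at least 38.2-fold higher (1.88 ± 0.56, adjusted p = 0.229), Tead4 was 9.54 against 15.2 FPKM, and Klf4 159 against 169. Klf17 was lower by similar amounts under both, -0.71 ± 0.34 and -0.67 ± 0.42, with libraries apart. That held in this direction for 22.1% of all genes by the headers and 24.6% by the tables. Centring moved the share of higher genes among calls by the headers from 35.7% to 60.8% and by the tables from 83.2% to 96.2%. It added Nr5a2 by the headers (2.04, adjusted p = 0.0337), and leaving out library B of the column headed late 2-cell Sirt1 added Gata3 (1.65, 0.0344).

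FK866 at the 4-cell stage showed Klf17 lower by the headers and higher by the tables. By the headers 4 of 9 genes were lower and none higher, beside 20.2% of all genes called, 7.44% lower and 12.7% higher. Tead4 was 22.1-fold lower (-4.05 ± 0.98, adjusted p = 0.0172), Nr5a2 10.2-fold (-3.13 ± 0.58, 0.00501), Tfap2c 7.83-fold (-2.78 ± 0.84, 0.0424) and Klf17 2.62-fold (-1.35 ± 0.42, 0.0472). Sox2 was higher, 7.89 FPKM against no read, just outside the threshold (3.15 ± 1.00, adjusted p = 0.0514). The FK866 side of this contrast is 1 library, with maternal transcripts at 1312 FPKM against 157 and Cyp19a1 at 8.12 against 0. Of the 4 calls, leaving out control library A kept that of Nr5a2 alone, and leaving out library B kept those of Nr5a2 and Klf17. A pseudocount of 0.1 or no filter kept Nr5a2 and Tead4, the fit on these 2 columns kept Tead4, and voom kept none. Sox2 was called higher in both of the last, and also with a pseudocount of 5 or a minimum of 5 FPKM. Centring moved the share of higher genes among calls from 63.1% to 36.3%.

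By the tables the same comparison set the column headed late 2-cell Sirt1 against that headed late 2-cell TSA, with 2 libraries each. Klf17 was 5.95-fold higher with FK866, 294 and 235 FPKM against 34.5 and 54.3 (2.57 ± 0.34, adjusted p = 0.0398). It was 1 of 12 genes called in all (0.103% of 11622), of which 11 (0.0946%) were higher. Leaving out 1 library moved that total to 75 without library A and 76 without library B of the column headed TSA, with 13.3% and 28.9% of calls higher. Without library A or B of the column headed Sirt1 it was 103 or 131. Klf4 was 1.92-fold higher (0.93 ± 0.44, adjusted p = 0.845) with libraries apart, as in 14.5% of all genes in this direction. Nr5a2, Tead4 and Tfap2c differed by 0.05 ± 0.47, 0.60 ± 0.80 and 0.91 ± 0.68. The Klf17 call was lost without library A of either column (adjusted p = 0.0569 without that headed TSA, 0.0541 without that headed Sirt1), with centring (2.04, 0.157), by voom (2.74, 0.254) and in the fit on these 2 columns (0.755). Centring moved the share of higher genes among calls from 91.7% to 50.0%, with 2 calls left.

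The addition of NMN to FK866 at the 4-cell stage gave no call. By the headers (0 of 9 by limma, beside 6.69%) the contrast is 1 library against 1, and voom called 1, Gata3, beside 1163 genes in all. Tfap2c was 7.38-fold higher (2.74 ± 0.96, adjusted p = 0.147), Nr5a2 4.50-fold (2.00 ± 0.67, 0.128) and Sall4 5.37-fold (2.27 ± 0.90, 0.198). By the tables (0 of 9, beside 0.129%) voom called no gene at all. Klf17 stood at 394 and 252 FPKM with NMN against 294 and 235 without. All 9 differences by the tables were under 1 in size on the log2 scale, the largest being Gata3 at -0.93 ± 0.46. Centring moved the share of higher genes among calls from 30.8% to 57.5% by the headers.

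Related genes were counted in lists of pluripotency and inner cell mass regulators, trophectoderm and Hippo pathway genes, primitive endoderm regulators and paralogues of the 10 factors. From early to late 2-cell, 2 of 16 tested pluripotency genes rose and none fell, namely Dppa5a (85.3 to 479 FPKM, 2.48 ± 0.34, adjusted p = 0.00119) and Prdm14 (0 to 6.09). Over all genes 7.63% were called higher and 7.37% lower. Of 21 trophectoderm and Hippo genes 4 rose and none fell. Wwtr1, which encodes the Yap1 relative TAZ, went from 0.999 to 20.6 FPKM (3.20 ± 0.68, adjusted p = 0.0108), and the Hippo regulator Nf2 from 2.50 to 19.6. The medians of both lists, 0.62 and -0.16, stand beside 0.00 over all genes. Of 13 paralogues 1 rose, Klf16, from 7.28 to 65.7 FPKM.

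In the columns headed late 2-cell TSA, late 2-cell Sirt1 and 4-cell control, Dppa5a was 2129, 2059 and 1814 FPKM, higher than in the late 2-cell control each time (adjusted p = 0.00434, 0.00715 and 0.0124). Yap1, the partner of Tead4, was lower in the same 3 columns, at 13.6, 14.4 and 21.2 against 59.7 FPKM (-2.08 ± 0.34, -1.98 ± 0.34 and -1.45 ± 0.34). These are also the 3 columns with the highest Tead4 means (52.8, 84.4 and 61.8 FPKM). Gdf3 and Tdgf1, genes of Nodal signalling, were 4.05 and 5.26 FPKM in the TSA-headed column and 0 in the control, and both passed the threshold. Gdf3 was also called in the column headed late 2-cell Sirt1 (2.54 FPKM, limma adjusted p = 0.04996). It was 0.533 FPKM in that headed 4-cell control. Tdgf1 was 1.58 and 1.62 FPKM in these 2 columns and was called in neither. Among paralogues Klf7 and Tfap2e were lower in all 3 columns. Tfap2e was 2.50 to 3.35 FPKM there against 56.3 in the control. The lists gave 3 of 16, 2 of 16 and 1 of 16 pluripotency genes higher and none lower in these columns, and 1 of 21, 0 of 21 and 0 of 21 trophectoderm genes higher with 1 of 21 lower in each. Over all genes 3.63%, 2.97% and 2.45% were called higher and 7.32%, 5.35% and 4.16% lower.

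The FK866 and FK866+NMN columns of the late 2-cell stage had no gene called in any of these 4 lists in either direction. In the library headed 4-cell FK866, against the late 2-cell control, Gata2 (43.9 against 1.07 FPKM), Eomes (7.50 against 0) and the primitive endoderm gene Pdgfra (7.03 against 0) were among the genes called higher. Gata2 also stood at 16.5 FPKM in the library headed 4-cell FK866+NMN, where Eomes and Pdgfra had no read. That made 3 of 21 trophectoderm genes and 2 of 3 primitive endoderm genes higher and none lower, beside 5.94% of all genes higher and 2.57% lower. Of 16 pluripotency genes 1 was higher, Nodal (7.14 FPKM against 0), and of 13 paralogues 3 were higher and 1 lower, Klf16 (6.55 against 65.7), with Cyp19a1 of the cumulus list also higher (8.12 against 0). The part of somatic cells in these values was not tested. The library headed 4-cell FK866+NMN gave no call in the 4 lists against the same control.

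The genes most like each factor over the 9 columns were sought among 8072 genes with at least 5 FPKM in some column, by Pearson's r of log2(FPKM + 1). These values describe 9 points that share libraries and carry no test. Tead4 was closest to Ran (r = 0.996) and Ddx47 (0.995), Nr5a2 to Nub1 (0.983) and Gm12362 (0.974), and Klf4 to Mknk2 (0.982) and Bid (0.959). Nanog was closest to Gm23969 (0.984) and Plekhm2 (0.982). Its highest point is the column where 1 library held its reads, and r without that column was not computed. Klf17 was closest to Banp (0.955) and Gm13378 (0.953), Sox2 to Gm9458 (0.973) and Ddx50 (0.962), and Tfap2c to Pus7 (0.962) and Ints8 (0.954). Sall4 and Gata3 had less close neighbours, Swt1 (0.929) and Rest (0.918) for Sall4 and Gm11779 (0.946) and Cwf19l2 (0.943) for Gata3.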

How the data were processed

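RNA-seq was made from 18 samples of mouse embryos, and 24 H3K27ac samples of the same series were not used here. According to the methods and the submitters' processing notes, the authors checked reads with FastQC and trimmed them with Trim Galore before alignment by HISAT2 (mm10). Then the authors counted reads with featureCounts and ran DESeq2 for their own tests. The deposited values are FPKM, 1 column per group, over 15747 complete rows on chromosomes 1 to 11, the last in part. Their 9 columns were matched to groups by header and, as an alternative, by the study's supplementary tables, and 0 columns of other samples were used.

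FPKM times the GENCODE M21 exon length is a whole multiple of a constant set by the library total. This allowed 7 columns to be separated into 2 libraries each, for 14925 genes in every column. On simulated data 9 of 9 column totals and 100.0% of separated values came back right. The simulation was built with the same exon lengths, so it could not show errors in them. Of values above 0, 97.0% to 97.8% were separated in the real columns and 99.98% in the simulated ones. Libraries held 3169677 to 10003481 reads. The fit took every gene whose mean reached 1 FPKM in at least 1 column and was made with limma 3.58.1 in R 4.3.3 (trend, log2(FPKM + 1), all 16 libraries, 7 residual degrees of freedom), with Benjamini-Hochberg adjustment and a threshold of 0.05. The study describes 2 biological replicates per group, and the labels do not tie them to separate litters or cultures, so p-values measure only the spread between libraries. The alternatives changed the pseudocount (0.1 or 5) or the filter (5 FPKM or none), or used median centring, a fit on the 2 columns compared, leaving out each library, columns by the tables and, chosen after seeing the data, voom on recovered reads.

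All 10 genes are named, with up to 4 called genes of each list and the 2 most alike genes per factor. Other genes of the lists, Sirt1, Zscan4d and Cyp19a1 were named after their values were seen. Genes and lists were chosen with earlier results of these data known. Genes of the lists on other chromosomes were not analysed here.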

Additional observations from a re-analysis of the deposited data

Results flagged for a closer look

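By the headers, the FK866 contrast of Nr5a2 passed the test of a difference between stages, with 1 library in one of its arms. The log2 fold change of Nr5a2 was 0.72 ± 0.47 in late 2-cell embryos and -3.13 ± 0.58 in 4-cell embryos, a difference of -3.85 ± 0.75 (limma interaction, adjusted p = 0.0122), with 1155 of 11622 genes called in the same test. The 4-cell side rests on 1 FK866 library, whose spread is taken from the other columns, so this p has no replicate check of that library. By the tables the difference was -0.67 ± 0.67 (adjusted p = 0.848) with 0 genes called, and that of Klf17 was 2.84 ± 0.48 (adjusted p = 0.105). The cause was not tested.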

How the results depend on the processing

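Over the alternatives, 758 of 873 values of single genes kept their direction and side of the threshold, 24 lost a call, 21 gained one, 4 turned from a call to the opposite sign, and 66 changed sign with no call in either. Those 4 were FK866 over control at the 4-cell stage by the tables, at 0.049 for Nr5a2, 0.91 for Tfap2c, 2.57 for Klf17 and 0.60 for Tead4. There the number of genes called went from 4 to 2 with a pseudocount of 0.1 or no filter (Nr5a2 and Tead4), to 2 in the fit on 2 columns (Tead4 and Sox2, so 1 of the 4), to 1 by voom (Sox2, none of the 4) and to 1 by the tables (Klf17, higher). It was 5 with a pseudocount of 5 or a minimum of 5 FPKM, which added Sox2. Late over early 2-cell went from 3 to 1 in the fit on 2 columns. Control at the 4-cell over the late 2-cell stage went from 0 to 1 by the tables. With centring FK866+NMN went from 0 to 1 over FK866 and to 2 over control, TSA from 1 to 4 and Sirt1 from 0 to 1. By voom FK866+NMN over control went to 1, Sirt1 to 3 and 4-cell FK866+NMN over FK866 to 1. TSA went to 0 in the fit on 2 columns. Leaving out single libraries gave 1 to 2 for FK866 at the 4-cell stage, 0 to 1 for FK866+NMN over FK866, 0 to 1 for FK866+NMN over control, 0 to 1 for Sirt1, 2 to 3 for late over early 2-cell and 1 to 1 for TSA. Over all genes, late 2-cell FK866 over control had 47 calls, 0 when centred and 244 by voom, FK866+NMN over FK866 had 243, 1853 and 982, FK866+NMN over control 406, 2018 and 965, 4-cell FK866 over control, read by the tables, had 12, 2 and 161, and 4-cell FK866+NMN over FK866 by the headers 777, 292 and 1163. Sirt1 by the tables had 113, 26 and 320, and 308 in the fit on 2 columns, TSA by the tables had 989 and 562 when centred, and 4-cell FK866+NMN over FK866 by the tables had 15, 2 and 0. With a minimum of 5 FPKM the counts moved to 21 for late 2-cell FK866, 36 for Sirt1 by the tables, 475 for 4-cell FK866+NMN by the headers and 2 by the tables. With a pseudocount of 0.1 they moved to 414 for FK866+NMN over FK866, 37 for 4-cell FK866 by the tables and 36 for 4-cell FK866+NMN by the tables, which had 37 with no filter. A pseudocount of 5 gave 140 for FK866+NMN over FK866. Leaving out 1 library gave 289 to 363 for late 2-cell FK866, 492 to 1209 for FK866+NMN over FK866, 514 to 1475 for FK866+NMN over control, 305 to 351 for Sirt1 by the tables, 597 to 901 for Sirt1 by the headers, 75 to 131 for 4-cell FK866 and 100 to 141 for 4-cell FK866+NMN, both by the tables. For the 4-cell control it gave 344 to 777 of 769 by the headers and 688 to 1219 of 1273 by the tables, for 4-cell FK866 by the headers 1522 to 1779 of 2345. Late over early 2-cell had 1744 and, in the fit on 2 columns, 649, and that fit gave 0 in all other comparisons of 2 libraries with 2. It was not run for 4-cell FK866+NMN over FK866 by the headers, which has 1 library a side. The cause of these changes was not tested. No paired analysis was possible because the columns carry no replicate numbers. With 1 or 2 libraries a column, depth and number of libraries limit the calls, and 3 reads of Nanog already amount to 0.134 to 0.422 FPKM.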
